A study of Mus musculus with 4 samples.

Results

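The genes described here are 10 core genes of the mouse Hippo pathway: Yap1, Wwtr1 (which encodes TAZ), Tead1, Tead2, Tead3, Tead4, Vgll4, Lats1, Lats2 and Nf2. They were chosen by name, and all 10 were found among the 43346 gene identifiers counted and passed the filter on low counts that left 16009 genes for testing. The series measured heart RNA on the day of birth (postnatal day 0) in 2 wild type libraries of ICR background and 2 libraries labelled MRTFA/B double knockout on a mixed background, so genotype and background cannot be told apart. MRTFA and MRTFB are myocardin-related transcription factors, actin-regulated coactivators of serum response factor (SRF). The sources used here give neither the alleles, nor a Cre driver, nor whether a library is 1 animal. The p-values therefore measure library-to-library spread that may be technical.

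The Hippo pathway is a kinase cascade that limits organ growth. LATS kinases phosphorylate the coactivators YAP and TAZ, which keeps them in the cytoplasm or sends them to degradation; unphosphorylated YAP and TAZ enter the nucleus and act through the TEAD DNA-binding proteins. In the heart, YAP activity is known for its part in cardiomyocyte growth around birth, and both MRTF and YAP respond to actin dynamics. Much of the regulation of YAP and TAZ is by phosphorylation and location, which RNA levels do not measure.

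Library totals were 29460641 and 25205257 counts in wild type, 27328195 in double knockout library 1 and 16175259 in double knockout library 2, the lowest. Levels are CPM, counts scaled to library size with TMM factors, and 3 counts are worth 0.106 to 0.184 CPM depending on the library. Mrtfa had 9.06 and 11.1 CPM in wild type against 3.35 and 2.26 CPM in double knockout (log2 fold change -1.82, SE 0.26; edgeR adjusted p = 0.120; DESeq2 adjusted p = 1.25e-05). Mrtfb had 46.9, 56.8, 46.0 and 49.6 CPM in that order; its groups overlapped, and since a whole-gene count can include exons outside a deletion, it does not check the label. Markers of cardiomyocytes, 8 genes of which none was at 0 in all libraries, summed to between 41731 and 45270 CPM. For 1 of the 8 the double knockout pair lay wholly above the wild type pair, and for 4 wholly below it. The shares of all tested genes were 25.8% and 25.2%. In whole hearts, fewer cells of a type and less RNA per cell cannot be told apart.

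Promoter windows, 250 bases before to 50 bases after an annotated transcription start, were available for 8 of the 10 genes (RefSeq, GRCm38.p6), and Tead1 and Tead4 had none in the table. They were searched for the TEAD motif CATTCC on both strands (GGAATG on the other) and for the CArG box, the SRF site through which MRTFs act. Of the 13 windows of these 8 genes, 7 held a TEAD motif, a share of 53.8%, where 14.7% of all 32851 windows in the table did. None of the 13 held a CArG box, which 1.63% of all windows hold. Windows of 1 gene can overlap and share sequence, and a match describes letters only. The 250 bases before the start are shown for the coactivators Yap1 and Wwtr1, for Vgll4, which competes with YAP for TEAD proteins, and for Nf2, the core gene that differed most between the groups. Ccn1, a widely used YAP target gene, and Srf, with 2 CArG boxes, are shown for contrast. Each sequence runs 5′ to 3′ in the direction of transcription in mm10 coordinates, and capitals mark TEAD motifs or, in Srf, CArG boxes; the searched motifs do not occur in the Nf2 stretch.
Yap1 promoter, chr9:8004597-8004846, minus strand: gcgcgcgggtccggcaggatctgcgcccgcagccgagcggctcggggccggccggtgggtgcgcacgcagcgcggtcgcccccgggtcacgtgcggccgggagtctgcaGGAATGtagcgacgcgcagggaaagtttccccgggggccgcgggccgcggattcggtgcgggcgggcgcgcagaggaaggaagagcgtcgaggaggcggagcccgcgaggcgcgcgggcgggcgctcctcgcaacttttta
Wwtr1 promoter, chr3:57575911-57576160, minus strand: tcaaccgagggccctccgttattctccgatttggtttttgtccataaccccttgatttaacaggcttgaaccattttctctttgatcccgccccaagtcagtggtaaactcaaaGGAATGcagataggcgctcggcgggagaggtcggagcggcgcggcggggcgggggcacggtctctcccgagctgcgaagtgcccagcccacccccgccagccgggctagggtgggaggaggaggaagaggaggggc
Vgll4 promoter, chr6:114969204-114969453, minus strand: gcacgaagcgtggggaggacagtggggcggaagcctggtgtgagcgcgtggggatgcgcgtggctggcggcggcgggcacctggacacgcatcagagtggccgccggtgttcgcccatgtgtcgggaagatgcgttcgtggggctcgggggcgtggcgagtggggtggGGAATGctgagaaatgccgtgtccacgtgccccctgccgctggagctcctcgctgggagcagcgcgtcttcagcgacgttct
Nf2 promoter, chr11:4849545-4849794, minus strand: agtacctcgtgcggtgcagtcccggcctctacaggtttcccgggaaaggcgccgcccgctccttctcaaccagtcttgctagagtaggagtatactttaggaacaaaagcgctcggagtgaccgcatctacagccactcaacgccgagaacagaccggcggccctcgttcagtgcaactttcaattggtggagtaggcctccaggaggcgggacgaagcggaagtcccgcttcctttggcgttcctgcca
Ccn1 promoter, chr3:145649986-145650235, minus strand: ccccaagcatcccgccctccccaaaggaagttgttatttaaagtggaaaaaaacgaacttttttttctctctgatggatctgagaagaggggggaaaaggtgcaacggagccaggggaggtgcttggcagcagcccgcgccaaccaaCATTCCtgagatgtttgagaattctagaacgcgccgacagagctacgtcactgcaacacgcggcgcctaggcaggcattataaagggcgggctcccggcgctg
Srf promoter, chr17:46556163-46556412, minus strand: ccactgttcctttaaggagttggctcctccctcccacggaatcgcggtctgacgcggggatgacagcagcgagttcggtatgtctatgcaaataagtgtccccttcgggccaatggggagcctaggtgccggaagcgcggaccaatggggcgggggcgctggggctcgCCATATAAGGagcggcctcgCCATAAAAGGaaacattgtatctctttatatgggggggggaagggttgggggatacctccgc

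None of the 10 core genes passed the test between genotypes, and 9 of them had double knockout to wild type ratios of mean CPM between 0.802 and 1.20. The exception by size was Nf2, at a ratio of 0.756. The test was edgeR's quasi-likelihood test with Benjamini-Hochberg adjustment over all 16009 genes, and a gene passed at an adjusted p under 0.05. Of the tested genes 0.075% did, 0.0125% higher and 0.0625% lower in double knockout. DESeq2 called 0 of the 10 and 3.93% of all genes (2.08% higher, 1.86% lower), and limma-voom called 0 of the 10 and 0.0687% of all genes. At an unadjusted edgeR p under 0.05, 1 core gene (Nf2) was counted, a share of 1 in 10 beside 17.3% of all tested genes. For 2 core genes (Wwtr1 and Tead3) the double knockout pair lay wholly above the wild type pair, and for 3 (Tead1, Tead4 and Nf2) wholly below it. The corresponding shares of all tested genes were 25.8% and 25.2%, so the count of 5 is near the background of 51.1%. The median absolute log2 fold change was 0.12 over the core genes and 0.22 over all tested genes. These sets were not matched for level.

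**Figure D1:**
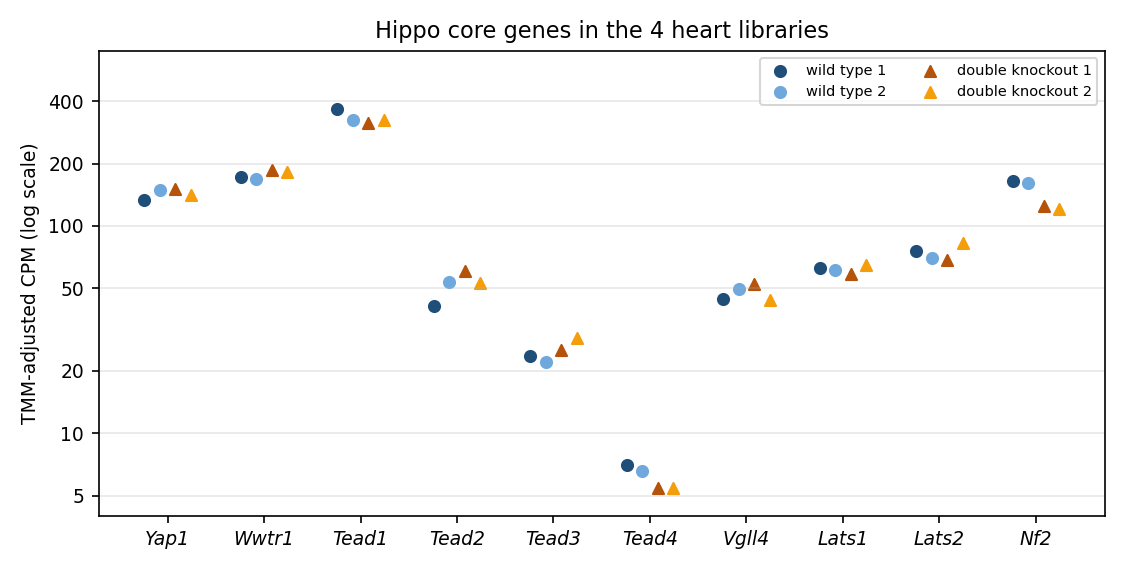
TMM-adjusted CPM (log axis) of the 10 core genes in each of the 4 libraries, with circles for wild type and triangles for double knockout. Tead1 is the highest at 313 to 368 CPM, Tead4 the lowest at 5.44 to 7.01 CPM, and for Nf2 both triangles lie below both circles.

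Yap1 (ENSMUSG00000053110, chromosome 9, 7931999 to 8004596, mm10) encodes YAP, the coactivator that LATS kinases restrain. It had 133 and 149 CPM in wild type against 151 and 141 CPM in double knockout. The groups overlapped, and the wild type libraries differed from each other more than the group means did. Its log2 fold change was 0.05 (SE 0.11), with a 95% interval of -0.23 to 0.33 and an edgeR adjusted p of 0.852. That interval spans fold changes from 0.855 to 1.25, so larger changes of Yap1 RNA in either direction lie outside it.

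Wwtr1 (chromosome 3, 57455649 to 57575910) encodes TAZ, the paralog of YAP. It had 172 and 168 CPM in wild type against 186 and 182 CPM in double knockout. Both double knockout libraries were higher, and the means differed by more than the libraries of either pair did. Its log2 fold change was 0.11 (SE 0.10; 95% interval -0.13 to 0.36; edgeR adjusted p = 0.609).

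Per kilobase of merged annotated exons, the scale on which genes can be compared, Wwtr1 stood at 2.34 ± 0.219 times the level of Yap1 in wild type and at 2.44 ± 0.0852 times in double knockout (± SD over the 2 libraries of a group). The ratios per library were 2.50 and 2.19 in wild type and 2.38 and 2.50 in double knockout. The groups overlapped (exact permutation test, two-sided, p = 0.667; 2 against 2 libraries cannot give a p below 0.333). The merged exons of Wwtr1 hold 4779 bases and those of Yap1 9257, so the size of the ratio depends on these annotated lengths. The SD does not include that dependence.

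The TEAD proteins bind DNA and bring YAP and TAZ to target genes. Tead1 (chromosome 7, 112679318 to 112906807), known as the main cardiac family member, had 368 and 326 CPM in wild type against 313 and 325 CPM in double knockout. Wild type library 2 and double knockout library 2 were nearly equal, and wild type library 1 was the highest. Its log2 fold change was -0.12 (SE 0.12; 95% interval -0.41 to 0.17; edgeR adjusted p = 0.635), and -0.03 without wild type library 1.

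Tead2 (chromosome 7, 45215753 to 45233644), a family member known from embryonic tissue, had 41.0 and 53.6 CPM in wild type against 60.3 and 53.0 CPM in double knockout. The groups overlapped, and the fitted log2 difference was 0.26 (SE 0.16; 95% interval -0.13 to 0.66; edgeR adjusted p = 0.447). Its exons share 13 bases with Cd37 on the opposite strand, which had 3 to 23 counts per library.

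Tead3 (chromosome 17, 28331671 to 28350817) had 23.6 and 22.1 CPM in wild type against 25.3 and 28.9 CPM in double knockout. Both double knockout libraries were higher, and the log2 fold change was 0.24 (SE 0.14; edgeR adjusted p = 0.412). Tead4 (chromosome 6, 128224288 to 128300823) had 89 to 199 counts per library. It had 7.01 and 6.59 CPM in wild type against 5.47 and 5.44 CPM in double knockout. Both double knockout libraries were lower, and the fitted log2 difference was -0.32 (SE 0.19; edgeR adjusted p = 0.434). Its 95% interval of -0.78 to 0.14 was the widest of the 10 core genes.

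Per kilobase of exon, Tead1 made up 66.0% and 59.6% of the summed Tead level in wild type and 56.3% and 58.7% of it in double knockout. Tead2 made up 20.8%, 27.7%, 30.8% and 27.1% in the same order. The share of Tead3 was 8.35 ± 0.253% in wild type and 9.87 ± 0.955% in double knockout (± SD over 2 libraries), and that of Tead4 was 4.64 ± 0.139% and 3.70 ± 0.00450%. Tead1 was therefore the largest part in all 4 libraries. The Tead1 share was lower in both double knockout libraries (exact permutation test, two-sided, p = 0.333, the smallest 2 against 2 libraries can give). The log2 difference in share was -0.12, becoming -0.051 when wild type library 1 was left out and -0.20 when its partner was.

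**Figure D2:**
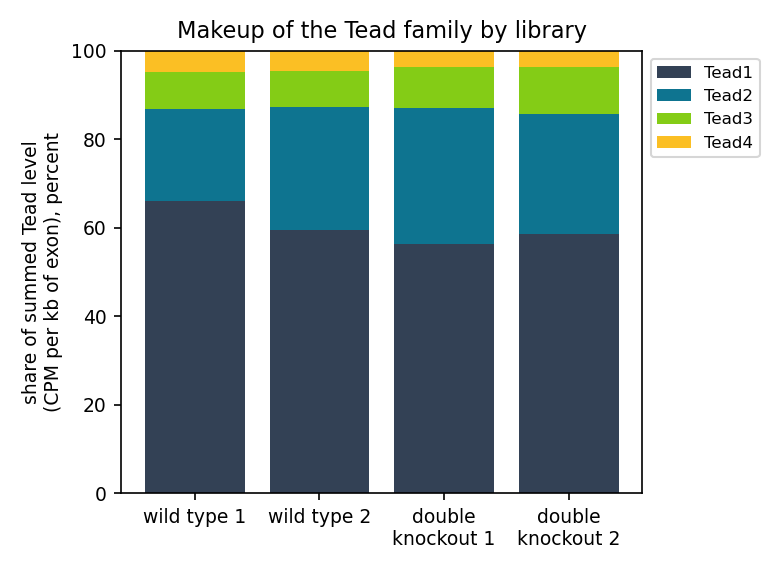
Share of each Tead gene in the summed Tead level (CPM per kilobase of exon, percent) for the 4 libraries, 1 stacked bar each. Tead1 is the largest segment in every bar, from 56.3% in double knockout library 1 to 66.0% in wild type library 1.

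Vgll4 (chromosome 6, 114860628 to 114969994) encodes a TEAD-binding protein that competes with YAP. It had 44.6 and 49.7 CPM in wild type against 52.2 and 43.8 CPM in double knockout. The double knockout libraries enclosed the wild type ones, and the log2 fold change was 0.03 (SE 0.13; 95% interval -0.30 to 0.36; edgeR adjusted p = 0.936).

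Lats1 and Lats2 encode the kinases that phosphorylate YAP and TAZ, and Lats2 is itself a YAP target gene. Lats1 (chromosome 10, 7681214 to 7716460) had 62.5 and 61.0 CPM in wild type against 58.5 and 64.7 CPM in double knockout. This was a log2 fold change below 0.01 in size (edgeR adjusted p = 0.990; 95% interval -0.27 to 0.26). Lats2 (chromosome 14, 57689662 to 57758388) had 76.1 and 70.4 CPM in wild type against 68.5 and 82.3 CPM in double knockout. For both kinases the double knockout libraries lay on either side of the wild type pair. The Lats2 log2 fold change was 0.04 (SE 0.13; 95% interval -0.27 to 0.35; edgeR adjusted p = 0.900).

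Per kilobase of exon, Lats2 stood at 1.27 and 1.21 times Lats1 in wild type, and 1.23 and 1.33 times in double knockout. These ratios overlapped between groups (exact permutation test, two-sided, p = 0.667). In the annotation used for exon lengths, 42.4% of the Lats2 exon bases are shared with Gm49361 on the same strand, a gene that the count files do not list.

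Nf2 (ENSMUSG00000009073, chromosome 11, 4765845 to 4849536) encodes merlin, the membrane-linked scaffold that helps activate LATS kinases. It had 164 and 161 CPM in wild type against 125 and 120 CPM in double knockout. The pairs were tight and did not overlap: the means were 162 ± 2.38 and 123 ± 3.19 CPM (SD, n = 2 per group). The log2 fold change was -0.40 (SE 0.10; 95% interval -0.65 to -0.16). The unadjusted edgeR p of 0.00706 ranked 677 among the 16009 genes, and the adjusted p was 0.166 (DESeq2 adjusted p = 0.106). Nf2 passed the threshold in 2 of 12 alternative settings, with adjusted p = 0.0244 without double knockout library 1, where 17.1% of all tested genes passed, and 0.0362 with no filter on low counts, where 6.07% did. Over the 12 settings its log2 fold change lay between -0.43 and -0.33. P-values from fits that leave 1 library in a group do not measure spread within that group. Leaving out wild type library 1 gave an adjusted p of 0.971 and leaving out its partner 0.618, where 0.0121% and 0.018% of genes passed.

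**Figure D3:**
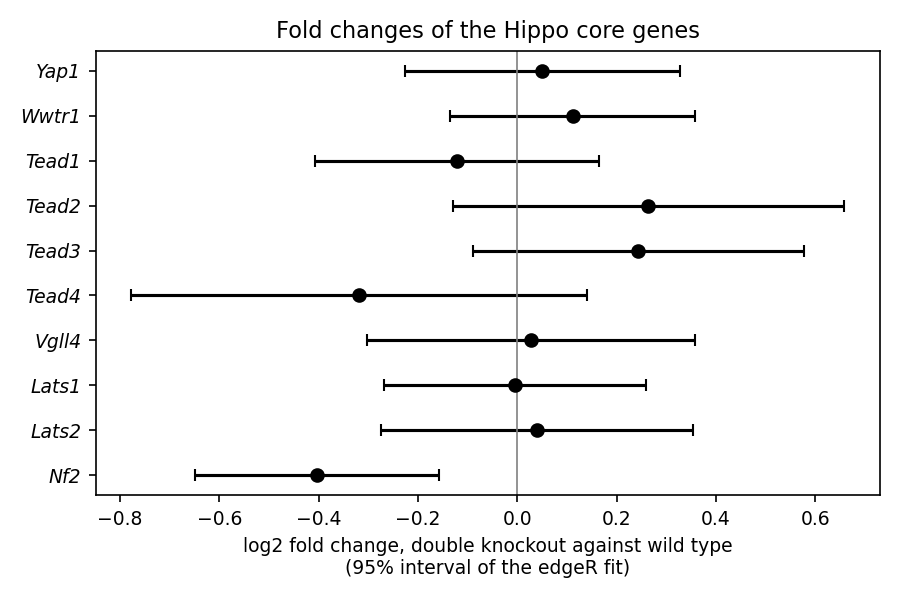
Log2 fold change of each core gene, double knockout against wild type, with the 95% interval of the edgeR fit as bars (2 libraries per group). The intervals are not adjusted for multiple testing; that of Nf2, -0.65 to -0.16, is the one that does not reach 0.

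Ordered by mean level per kilobase of exon over the 4 libraries, the core genes ran Wwtr1 (37.05 CPM per kilobase), Tead1 (24.6), Nf2 (20.9), Yap1 (15.5), Tead2 (10.9), Lats2 (10.7), Vgll4 (8.82), Lats1 (8.45), Tead3 (3.72) and Tead4 (1.70). The ranges over libraries overlapped for the neighbours Tead1 and Nf2, Tead2 and Lats2, and Vgll4 and Lats1, so these pairs are not ordered beyond their spread. Merged exons count every annotated transcript, so a gene with long rare exons appears lower on this scale.

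Within a genotype the core genes varied little between libraries. Their median absolute log2 difference was 0.10 in the wild type pair and 0.12 in the double knockout pair, beside 0.14 and 0.22 over all tested genes. The tested genes were not matched to the core genes for level. Among the pathway lists described below, the same medians were 0.088 and 0.12 for the kinases and adaptors. They were 0.12 and 0.11 for the antagonists and 0.10 and 0.19 for the partners. The junction scaffolds had 0.087 and 0.34, and the target genes 0.13 and 0.41. A low spread was therefore not particular to the core genes, and many other genes had profiles as flat. Among 10414 other genes with a mean of at least 5 CPM and a symbol that is no clone number or pseudogene mark, 282 lay within a root mean square distance of 0.05 of Yap1 on the centred log2(CPM + 0.5) scale over the 4 libraries, and 468 lay as close to Wwtr1. The nearest were Tle4, Mrpl24 and Pex6 for Yap1, Rragd, Brd8 and Egflam for Wwtr1, Edem1, Msantd2 and Psmd12 for Tead1, and Adipor1, Sfswap and Mpp1 for Lats1.

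The other kinases and adaptors of the cascade did not move together. Of 17 tested, 8 had positive and 9 negative fold changes, with a median of -0.05 beside 0.01 over all genes, and 0 passed the edgeR threshold. Stk3, an MST kinase that activates LATS, had 52.8 and 53.2 CPM in wild type against 60.3 and 61.0 CPM in double knockout (log2 fold change 0.19; edgeR adjusted p = 0.377). Map4k4, a further LATS-activating kinase, had a log2 fold change of 0.28 (adjusted p = 0.297). Its relative Mink1 had 33.8 and 34.9 CPM in wild type against 25.7 and 26.1 CPM in double knockout (-0.41, adjusted p = 0.190). Map4k1, a kinase of blood cells, rested on 41, 55, 20 and 4 counts (1.44, 2.21, 0.705 and 0.245 CPM; adjusted p = 0.185).

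Junction and polarity scaffolds that feed into the cascade had a median log2 fold change of 0.01 in 13 genes, with 0 past the threshold. Frmd6, a FERM-domain protein placed upstream of the kinases, had 51.5 and 47.3 CPM in wild type against 66.8 and 70.5 CPM in double knockout (0.48, SE 0.11; edgeR adjusted p = 0.156). It passed in 3 of 12 alternatives: with no filter (0.0222), without double knockout library 1 (0.00982), and without library 2 (0.0362), where 8.24% of genes passed. Dchs1, an atypical cadherin, was at 30.9, 33.7, 26.2 and 25.0 CPM (adjusted p = 0.260), and its partner Fat4 had a log2 fold change of -0.16 with overlapping groups. Amotl1, an angiomotin that binds YAP and actin, had 150 and 157 CPM in wild type against 185 and 473 CPM in double knockout. The high value came from double knockout library 2 alone (log2 fold change 1.097, SE 0.45; adjusted p = 0.311). It was 1.62 without double knockout library 1 (adjusted p = 8.21e-07) and 0.27 without library 2 (adjusted p = 0.181).

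Antagonists of LATS and MST kinases, the Ajuba-type LIM proteins and the phosphatase complex STRIPAK, had a median of -0.08 in 13 genes, which was -0.0050 and -0.15 without double knockout library 1 or 2. Strn, the STRIPAK scaffold striatin, had 229 and 209 CPM in wild type against 162 and 135 CPM in double knockout (-0.57, SE 0.13; edgeR adjusted p = 0.157). It was the single DESeq2 call of this list (adjusted p = 0.0375), and it also passed in edgeR without either double knockout library and with no filter. Ppp2r1a, the scaffold subunit of protein phosphatase 2A, had -0.23 (adjusted p = 0.322), and Fgfr1op2 and Sike1, further STRIPAK members, had 0.15 and 0.12. Partners and turnover factors of YAP and TAZ had a median of 0.01 in 12 tested of 14 genes, and 0 passed. Ywhag, a 14-3-3 protein of the family that holds phosphorylated YAP in the cytoplasm, was at 276, 268, 216 and 187 CPM (-0.43, adjusted p = 0.183), and Ywhah of the same family had -0.20 (adjusted p = 0.443). The casein kinases Csnk1d and Csnk1e, which mark YAP for degradation, had 0.31 and 0.42 (adjusted p = 0.335 and 0.343). Double knockout library 2 was the highest for both. The Csnk1e gene (chromosome 15, 79417856 to 79455566) is on the same chromosome as Mrtfa (81012281 to 81190757), and Csnk1d is on chromosome 11. Whether position plays a part in these values was not tested.

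**Figure D4:**
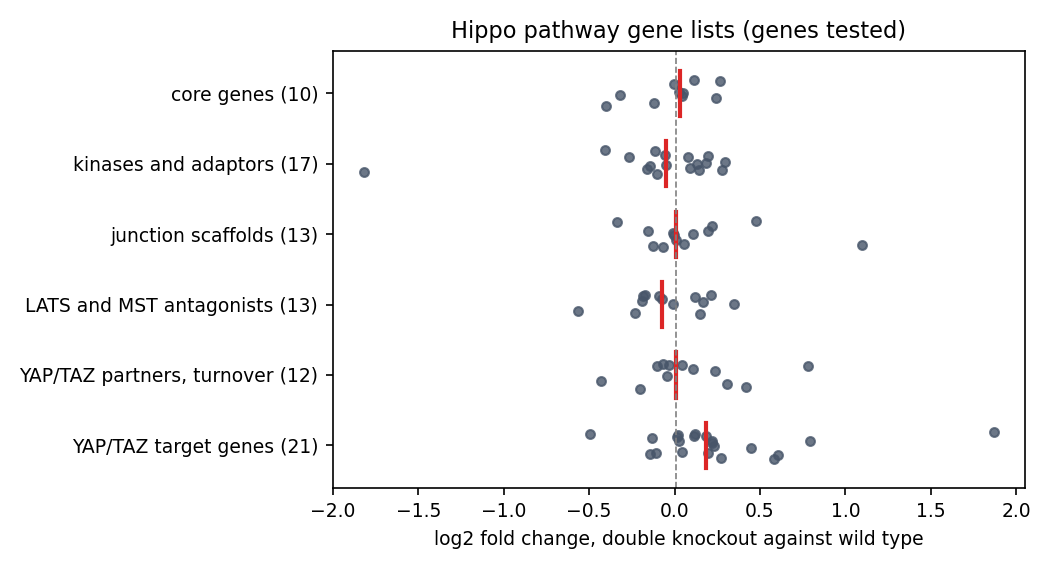
Log2 fold changes, double knockout against wild type, of the tested genes in 6 Hippo pathway lists (1 point per gene, jittered vertically), with the list median in red and the median of all tested genes dashed. Medians lie between -0.08 and 0.19, and the target genes have the highest.

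The target genes of YAP, TAZ and TEAD differed more between the double knockout libraries than between genotypes, with a median absolute log2 difference of 0.41 within that pair and a median absolute fold change of 0.20. Over all genes these were 0.22 and 0.22. Of 22 known target genes, Lats2 among them, 21 were tested; Foxf2, at 0 or 1 count per library, was not. In 17 of the 21 the fold change was positive, with a median of 0.19 beside 0.01 over all genes, where 51.3% were positive. None passed the edgeR threshold; at an unadjusted p under 0.05 there were 4 higher and 0 lower, beside 8.7% and 8.63% of all genes, and DESeq2 called 1. The list median was 0.29 above the wild type mean in double knockout library 2 and at -0.08 in library 1. Double knockout library 2 held the highest value of the 4 libraries for 17 of the 21 genes, and for 31.6% of all tested genes. It was also the highest for 9 of the 13 junction scaffolds and 9 of the 17 kinases and adaptors. Amotl2 and Ptpn14 are in both the junction and target lists and are counted in each. For the core genes it was the highest in 3 of 10, for the antagonists in 4 of 13, and for the tested partners in 5 of 12. Without double knockout library 2 the target list median was -0.10.

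Ccn2, Ccn1 and Ankrd1, widely used readouts of YAP activity that also respond to stretch, had wide spreads. Ccn2 (CTGF, a matricellular protein; chromosome 10, 24595442 to 24598683) had 97.1 and 35.9 CPM in wild type against 59.5 and 427 CPM in double knockout. Double knockout library 1 lay between the wild type libraries, while library 2 was 7.19 times library 1, a pair difference that 0.143% of the 11153 genes with at least 5 CPM exceeded. The wild type libraries differed 2.71 times, and that too was exceeded by 0.143% of these genes in the wild type pair. The log2 fold change of 1.87 had an SE of 1.096 and a 95% interval of -1.16 to 4.90 (edgeR adjusted p = 0.461).

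Ccn1 (CYR61; chromosome 3, 145646976 to 145649981) had 29.4 and 25.5 CPM in wild type, with 16.8 CPM in double knockout library 1 and 67.5 CPM in library 2. The double knockout libraries thus lay on opposite sides of the wild type pair. With all libraries its log2 fold change was 0.61 (SE 0.64; edgeR adjusted p = 0.678). It was 1.29 without double knockout library 1 (adjusted p = 1.64e-05) and -0.72 without library 2 (adjusted p = 0.0138), so the direction depends on the library kept.

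Ankrd1 (CARP, a cardiac ankyrin-repeat protein; chromosome 19, 36111961 to 36120099) had 2709 and 874 CPM in wild type against 977 and 3222 CPM in double knockout. Wild type library 1 and double knockout library 2 were high, and the others low. The log2 fold change was 0.23 (SE 0.79; 95% interval -1.89 to 2.35; edgeR adjusted p = 0.911). Among the core genes the double knockout libraries were far closer: library 2 stood at 0.933 times library 1 for Yap1, 1.20 times for Lats2 and 0.964 times for Nf2. Lats2 had the largest such difference of the 10, and 36.5% of the 11153 genes exceeded it.

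Of the target genes with positive fold changes, the smallest p-value belonged to Igfbp3, an insulin-like growth factor binding protein. It had 38.5 and 37.5 CPM in wild type against 51.9 and 62.1 CPM in double knockout (0.58, SE 0.13; edgeR adjusted p = 0.154; DESeq2 adjusted p = 0.0480). Igfbp3 (chromosome 11, 7206086 to 7213923) is on the same chromosome as Nf2. Like Strn, it passed in edgeR without either double knockout library and with no filter. Nt5e, the ectonucleotidase CD73, came next at 31.0, 29.4, 40.9 and 64.0 CPM (0.79, adjusted p = 0.188). Double knockout library 2 was again the highest. Of the 4 target genes with negative fold changes, the smallest p-values belonged to Fjx1 (-0.50, at 0.918 to 1.69 CPM) and Arhgef17 (-0.13), neither past the threshold.

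**Figure D5:**
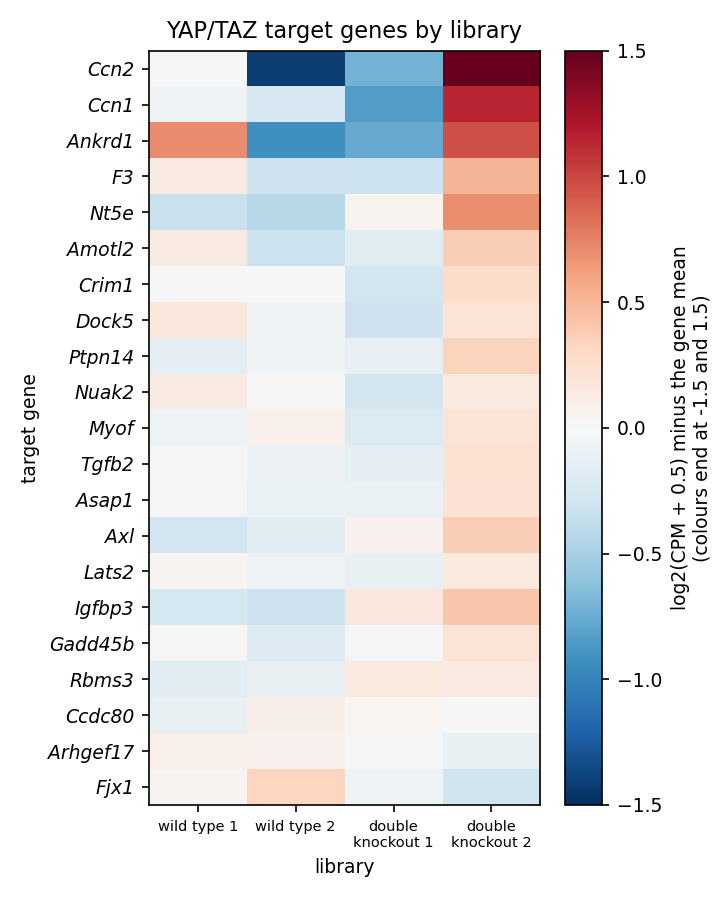
Log2(CPM + 0.5) of the 21 tested target genes in each library, minus the gene's mean over the 4 libraries (colour), sorted by the difference between the double knockout libraries. Double knockout library 2 is the highest library for 17 of the 21 genes, and Ankrd1 is also high in wild type library 1.

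Markers of other cell types that express Hippo genes gave these levels in the same libraries. The 8 fibroblast markers summed to 4146 and 4436 CPM in wild type and to 3455.5 and 4454 CPM in double knockout, and the 8 endothelial markers to between 1348.5 and 1423 CPM in all 4 libraries. Of the endothelial markers, 4 were wholly higher and 1 wholly lower in double knockout, beside 25.8% and 25.2% of all tested genes. Kdr was the lower 1, at 290, 265, 215 and 194 CPM, and Vwf, among the higher, had 59.9, 65.3, 77.3 and 92.6 CPM. The 8 smooth muscle and pericyte markers summed to 3650 and 2179 CPM in wild type and to 1103 and 978 CPM in double knockout, with 6 of the 8 wholly lower in double knockout, as 25.2% of all tested genes were. Acta2 alone had 2962, 1468, 535 and 439 CPM, so it was a large part of each sum. The markers that were not wholly lower, Pdgfrb and Kcnj8, had log2 fold changes of -0.02 and -0.04. The 8 epicardial markers summed to 173 and 163 CPM in wild type and to 218 and 178 CPM in double knockout. Of these, Tbx18, an epicardial transcription factor, had 35.1, 25.5, 77.2 and 49.2 CPM, and the other 7 summed to 137.8, 137.6, 140.9 and 129.0 CPM. Leukocyte markers summed to 62.2 to 65.1 CPM in wild type and 74.4 to 88.7 CPM in double knockout. Of these 8, 4 were wholly higher in double knockout, as 25.8% of all tested genes were. Fold changes were positive for 6 and negative for 2, Ptprc (-0.36) and Adgre1 (-0.21). Csf1r, at 17.1, 17.7, 24.6 and 15.2 CPM, and Lyz2, at 14.6, 13.2, 22.2 and 12.5 CPM, were high in double knockout library 1 alone. Erythroid markers summed to 752, 554, 463 and 806 CPM, so they too were higher in double knockout library 2 than in library 1. No marker in these lists was at 0 in all libraries. The part of cell makeup in the Nf2 and target gene values was not tested.

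Neither of the targeted genes' chromosomes, 15 and 16, holds a core gene. Srf, the partner of the MRTFs, had 111 and 85.6 CPM in wild type against 71.9 and 79.4 CPM in double knockout (-0.38, SE 0.15; edgeR adjusted p = 0.284), a fold change near that of Nf2 with a wider spread.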

How the data were processed

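For each library the authors deposited a table of raw gene counts; HTSeq, mm10 and DESeq 1.10.1 are named per the submitters' processing notes. The sources used here do not name the aligner, annotation release, strand setting or handling of multi-mapped reads (not given). Symbols, positions and merged exon lengths came from GENCODE M21 (mm10), which matched 42462 of 43346 identifiers. The main test was edgeR 4.0.16 (R 4.3.3): filterByExpr, TMM, robust quasi-likelihood fit, no covariate, all 4 libraries, Benjamini-Hochberg adjustment over all genes. Intervals are 95% intervals from the fit's SE and degrees of freedom. DESeq2 1.42.0, limma-voom (limma 3.58.1), other scaling and filters, a replicate block and leaving out each library were alternatives. The fit was also run on simulated data, and no conclusion here rests on that run.

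The core genes and lists were chosen with earlier results of these data known. Named were the core genes, Mrtfa, Mrtfb, Srf, Ccn1, Ccn2, Ankrd1, from each list the 2 genes with the smallest p in each direction, and the 3 genes nearest in pattern to Yap1, Wwtr1, Tead1 and Lats1; the 2 most abundant markers of each cell type were also selected, of which those that bear on a result are named. A further marker list is not reported here. Replicate numbers were not used to pair the libraries in the main test, and whether they mark a pairing is not known.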

Additional observations from a re-analysis of the deposited data

How the results depend on the processing

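Of 120 fold changes of the 10 core genes under 12 alternatives, 108 kept their direction and side of the threshold, 2 passed it (Nf2, above) and 10 changed sign, all of genes whose fold change was 0.05 or less in size. Dropping composition factors moved the median of all genes from 0.0097 to 0.081; Lats1, at 0.066, moved with it. Lats1 turned to 0.0014 with the stricter filter (CPM above 1 in every library of a genotype, mean count 50 or more). With 1 library left out, log2 fold changes ran from -0.080 to 0.065 for Lats1, -0.10 to 0.17 for Lats2, -0.11 to 0.15 for Vgll4 and -0.031 to 0.12 for Yap1. Core genes past the threshold numbered 0 to 1 with 1 library left out and 1 with no filter. Those with an unadjusted p under 0.05 numbered 0 to 2 with 1 library left out (0 without wild type library 1), and those with groups apart 5 to 10; of all genes 68.1% to 70.6% were apart when a wild type library was left out, and 80.1% to 83.1% when a double knockout library was. The count over all genes, 12, became 1514 with no filter, 532 in DESeq2 and 2 to 2795 with 1 library left out; the cause was not tested. A group left with 1 library is assumed to vary like the other group. P-values from such fits do not measure spread within that group.

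The labels number the libraries 1 and 2 in each genotype. Deviations of same-numbered libraries correlated at -0.105. With 2 libraries per group the crossed pairing gives the same size with the other sign. This value therefore cannot show whether the numbers pair the libraries. With a replicate block 2 genes passed over all genes, and with the crossed pairing of that block, added after seeing the data, 3. The replicate block called 0 core genes.

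With 1 library left out the target list median ran from -0.10 to 0.29, that of the kinases from -0.092 to 0.083 and that of the junction scaffolds from -0.063 to 0.10. The antagonist list ran from -0.15 to -0.0050. The partner list was at 0.077 without composition factors, beside 0.081 over all genes, -0.049 with no filter and 0.050 with the stricter filter. The log2 difference in Wwtr1 to Yap1 ratio ran from -0.036 to 0.16 and that in Lats2 to Lats1 ratio from -0.018 to 0.10; that in the Tead1 share ran from -0.20 to -0.051. Among the 50 genes followed, 15 that did not pass with all libraries passed without double knockout library 1, and 6 without library 2, where 17.1% and 8.24% of all genes passed; the pathway list genes among the 50 were mostly chosen for a small p in these data. Among the former were Amotl1, Ccn1, Csnk1d, Csnk1e, Map4k1, Nt5e and Ywhag. Other genes that changed sign with 1 library left out ran from -0.88 to 1.26 for Ankrd1, -0.72 to 1.29 for Ccn1, -0.17 to 2.76 for Ccn2, -0.25 to 0.012 for Mrtfb, -0.25 to 0.071 for Col3a1, -0.41 to 0.0062 for Postn, -0.20 to 0.50 for Csf1r, -0.15 to 0.67 for Lyz2, -0.42 to 0.41 for Hbb-bs, -0.50 to 0.44 for Hba-a1, -0.024 to 0.18 for Tnnt2 and -0.052 to 0.20 for Upk3b. Hba-a1 was also at -0.070 in limma-voom and -0.026 with the replicate block.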
